A study of Mus musculus with 15 samples.

Results

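Collagen chains and the enzymes that modify them were followed across 15 RNA-seq libraries of 266-6 cells, a mouse pancreatic acinar line. The members were chosen by gene name: every symbol made of Col, a type number, the letter a and a chain number, plus 13 enzymes, namely the prolyl 4-hydroxylase subunits P4ha1 to P4ha3, the lysyl hydroxylases Plod1 to Plod3, the collagen galactosyltransferases Colgalt1 and Colgalt2, and the lysyl oxidases Lox and Loxl1 to Loxl4. This gave 57 of the 43432 genes in the table, 44 collagen chains and 13 enzymes, all protein coding.

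The series profiled how ligands of retinoic acid receptor alpha and its heterodimer partner RXR, alone and together, alter transcription. Cells grown in 10% serum spent 24 h in stripped medium and then 24 h with a ligand. There were 5 groups of 3 libraries. Controls received the vehicle DMSO, and the others AM580 (an agonist of retinoic acid receptor alpha), CD3254 (an agonist of RXR), the combination of those agonists, called the joint treatment here, or 9-cis retinoic acid, which binds both receptor families. The labels give no ligand concentration, and all groups are 1 cell line, so nothing here compares cell types.

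Collagens are made as single chains in the endoplasmic reticulum, where prolyl and lysyl residues are hydroxylated and some hydroxylysines receive sugars before the chains wind into a triple helix. After secretion, lysyl oxidases oxidise lysines so that the molecules can be joined by cross-links. Prolyl and lysyl hydroxylases use molecular oxygen, iron and 2-oxoglutarate. In the pancreas the fibrillar collagens of scar tissue are known chiefly as products of stellate cells and fibroblasts, whereas epithelial cells such as acinar cells sit on a basement membrane built on type IV collagen.

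Reads assigned to genes numbered from 28501170 to 46801058 in 14 libraries. Replicate 3 of 9-cis retinoic acid held 14600962, and in it 62.99% of reads had no gene against 18.06% to 28.55% elsewhere. Acinar enzyme transcripts were present in every library: Ctrb1 ranged from 3841 to 7201 CPM (reads scaled to a common library total with edgeR's TMM factors) and Cpa1 from 379 to 883 CPM, although Amy2a5 did not exceed 1.07 CPM and Cpb1 did not exceed 0.179 CPM. Along the first principal component of log2 CPM, which held 48.3% of the variance (48.2% with the members removed), 5 libraries stood apart from the other 10. They were replicate 1 of DMSO, AM580, CD3254 and 9-cis retinoic acid and replicate 2 of the joint treatment, so each treatment had 1 library in the 5-library set and 2 in the 10-library set. The sets were read from these counts, and the labels name no batch or culture that would separate them. Differences between the sets are therefore given as values, with no test.

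At least 10 reads' worth (0.263 CPM) in 3 libraries were needed for a gene to be tested, and 40 members passed, 29 of 44 chains and 11 of 13 enzymes. Because 3 of them (Col5a3, Col6a1 and Col6a6) passed through the 5-library set alone and Col28a1 through the 10-library set alone, counts over the tested members are descriptions. The other 17 members had means between 0.00512 and 0.198 CPM. Among them were Col3a1 (0.198 CPM) and Col5a2, fibrillar chains of connective tissue, Col2a1 and Col10a1 of cartilage, and the lysyl oxidases Lox and Loxl1. Col5a3, with a mean of 0.278 CPM, was the tested member closest to that limit. A mean of at least 1 CPM was reached by 26 members, at least 10 CPM by 13, and at least 100 CPM by 5, namely P4ha1, P4ha2, Plod3, Col18a1 and Col4a1.

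Levels of different genes were compared as CPM per kilobase (kb) of merged exons, mean of 15 libraries. P4ha1 led with 66.9, followed by the lysyl hydroxylase and glucosyltransferase Plod3 with 30.3 and P4ha2 with 30.03. Of the chains, Col18a1 (15.4) and Col4a1 (14.05) stood highest, then Col4a2 (6.26), the fibrillar chain Col11a1 (5.44) and Col15a1 (5.02). Colgalt1 (16.4), Plod1 (8.26), Plod2 (8.24) and Loxl2 (4.62) filled the remaining places among the 12 highest. Basement membrane and multiplexin chains thus made up most of the abundant collagens, and the type I chains that dominate fibrous tissue stayed at 0.293 CPM per kb (Col1a2) and 0.128 CPM per kb (Col1a1).

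**Figure D1:**
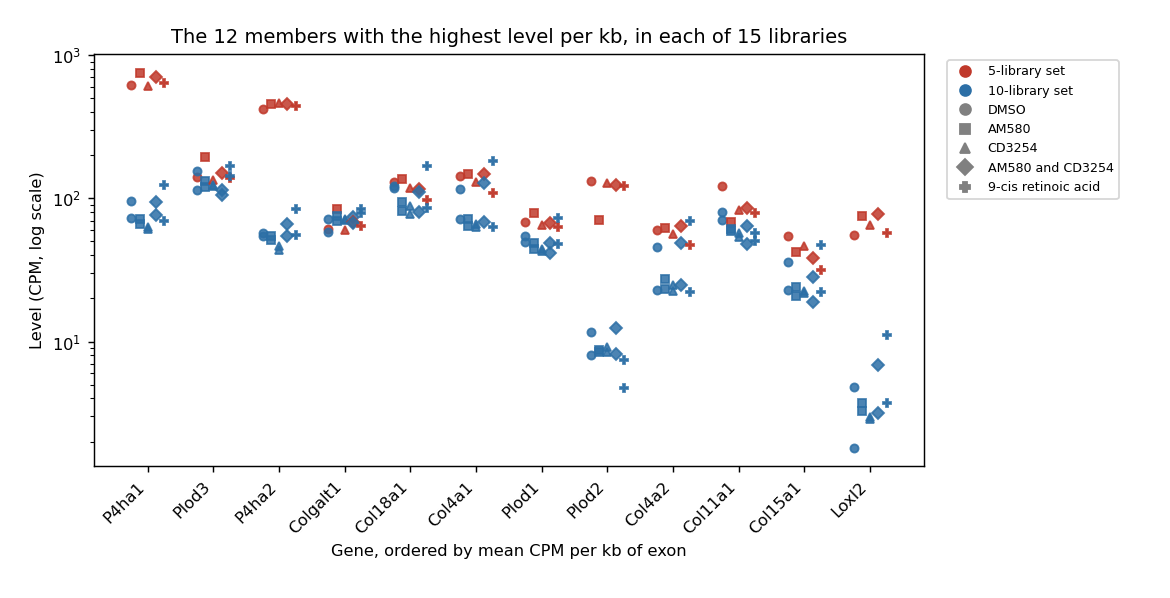
Level in CPM (log scale) of the 12 members with the highest mean CPM per kb of exon, with 1 point per library, colour for the library set and symbol for the treatment. P4ha1, P4ha2, Plod2 and Loxl2 form separate upper and lower clouds by library set, whereas Plod3, Colgalt1 and Col18a1 have overlapping clouds.

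Prolyl 4-hydroxylases make the 4-hydroxyproline that keeps the triple helix stable at body temperature, and P4ha1 and P4ha2 are alternative catalytic subunits. P4ha1 (ENSMUSG00000019916, chr10:59323296-59373304, GRCm38) lay between 613 and 757 CPM in the 5-library set, median 644. In the 10-library set it lay between 61.0 and 124 CPM, median 72.1. Every library of the first set was above every library of the second, with a fitted difference of 3.09 on the log2 scale, 8.52-fold. The split was present in each treatment, where the 1 library of the 5-library set exceeded the mean of the other 2 by 2.79 to 3.45 on the log2 scale.

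P4ha2 (ENSMUSG00000018906, chr11:54100095-54131665) lay between 424 and 467 CPM, median 453, in the 5-library set and between 43.3 and 83.6 CPM, median 54.7, in the 10-library set. The fitted difference was 8.03-fold, again without overlap. P4ha3, the third catalytic subunit, was near 1 CPM in both sets (0.840 to 1.46 and 0.513 to 1.19 CPM), so the difference was carried by the abundant subunits.

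The promoter windows of P4ha1 and P4ha2 are shown because these abundant members, alternative subunits of prolyl 4-hydroxylase, differed between the sets together. Each window is the 300 bases from 250 before to 50 after the RefSeq start (GRCm38.p6, plus strand), and capitals mark the letters ACGTG or GCGTG on either strand, the core of the hypoxia response element. ACGTG is also part of the E-box CACGTG.
P4ha1 chr10:59323046-59323345: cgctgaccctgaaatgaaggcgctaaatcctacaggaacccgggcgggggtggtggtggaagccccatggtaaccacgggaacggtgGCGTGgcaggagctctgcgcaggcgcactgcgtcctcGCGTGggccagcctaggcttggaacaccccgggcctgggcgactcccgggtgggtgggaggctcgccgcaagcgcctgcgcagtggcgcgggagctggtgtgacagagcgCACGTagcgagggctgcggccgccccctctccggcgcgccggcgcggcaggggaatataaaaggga
P4ha2 chr11:54100674-54100973: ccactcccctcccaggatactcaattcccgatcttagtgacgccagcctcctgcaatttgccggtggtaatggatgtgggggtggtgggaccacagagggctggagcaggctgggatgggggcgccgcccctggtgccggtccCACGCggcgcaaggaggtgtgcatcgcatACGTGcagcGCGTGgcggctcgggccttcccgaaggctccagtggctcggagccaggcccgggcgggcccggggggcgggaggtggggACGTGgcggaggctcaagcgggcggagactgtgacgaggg

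P4ha1 held 3 such cores and P4ha2 held 4. Plod3 also held 4, Colgalt1 held 3 in 1 of its windows and Col6a6 held 5, and these members overlapped between the sets. Plod2 and Loxl2 had no window. Across the 32851 windows of the table, 43.8% held at least 1 core, 8.93% at least 3 and 3.86% at least 4. RefSeq windows matched 42 members, of which 19 held a core (45.2%), about the share of all windows. Among members higher in the 5-library set without overlap, 5 of the 8 with a window held a core, against 12 of 24 other tested members. The 8 include Col5a3, with a core, and Col6a1, without, which passed the filter through the 5-library set alone. A match is a description of letters only.

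Lysyl hydroxylases supply the hydroxylysine that carries sugars and the more stable cross-links. Plod2 (ENSMUSG00000032374, chr9:92542223-92608428), the enzyme known for hydroxylating the telopeptides where cross-links form, lay between 70.6 and 133 CPM in the 5-library set, median 124. It lay between 4.70 and 12.5 CPM, median 8.48, in the 10-library set. The fitted difference was 13.2-fold (log2 3.72), and AM580 replicate 1, at 70.6 CPM, was the lowest of the upper group.

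Plod1 and Plod3 did not separate in this way. Plod1 lay between 63.0 and 79.2 CPM and between 41.2 and 72.9 CPM, with the overlap made by replicate 3 of 9-cis retinoic acid. Plod3 lay between 133 and 195 CPM and between 106 and 167 CPM. Per kb, Plod2 averaged 21.5 ± 4.75 (SD, n = 5) in the 5-library set, below Plod3 at 33.7 ± 5.47, and 1.62 ± 0.398 (SD, n = 10) in the 10-library set against 28.6 ± 4.34 for Plod3. By CPM per kb, Plod2 had rank 4 among the members in the 5-library set and rank 13 in the 10-library set, where Plod3 had rank 1 and P4ha1 rank 2.

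Colgalt1 and Colgalt2 add galactose to hydroxylysine. Colgalt1 differed by -0.10 on the log2 scale between the sets (60.3 to 84.5 and 58.3 to 84.8 CPM). Colgalt2 was lower in the 5-library set by 0.99 on the log2 scale (4.74 to 7.27 against 5.43 to 17.4 CPM), with overlap.

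Lysyl oxidases begin cross-linking outside the cell. Loxl2 (ENSMUSG00000034205, chr14:69609068-69695834), an oxidase whose known substrates include type IV collagen, had the largest difference of all tested members. It lay between 55.6 and 78.2 CPM, median 65.0, in the 5-library set and between 1.81 and 11.0 CPM, median 3.50, in the other, a fitted 16.2-fold (log2 4.02). Within single treatments the log2 difference ran from 3.13 in 9-cis retinoic acid to 4.43 in CD3254. Loxl3 was also higher without overlap, at 2.89 to 3.79 CPM against 0.521 to 2.06 CPM, a fitted 2.56-fold. Loxl4 lay between 3.19 and 3.88 CPM and between 1.13 and 3.34 CPM, and overlapped only through replicate 3 of 9-cis retinoic acid. Loxl2 shares 5.57% of its exon bases with the antisense gene Gm27177 and Loxl3 11.6% with Htra2. The same holds for Plod3 (11.7% with Znhit1), Colgalt1 (11.4% with Unc13a) and Plod2 (6.42% with Gm38391). Reads from these shared bases could not be told apart if strand was not used in counting. Lox, the founding oxidase, was below the filter with 0.162 CPM on average in the 5-library set and 0.0695 CPM in the other.

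In all, 16 of the 40 tested members had ranges in the 2 sets that did not overlap, 40% against 26.0% of the 16736 genes tested. For 13 the 5-library set was higher (13.4% of all genes tested) and for 3 it was lower (12.6%). A fitted difference of at least 1 on the log2 scale in either direction was found for 19 members, 47.5% against 18.0% of all genes tested. The 13 include Col5a3 and Col6a1, which passed the filter through the 5-library set alone. The 19 include these, Col6a6 and Col28a1, each of which passed through 1 set alone, so these shares are descriptions. The median member differed by 0.705 on the log2 scale, against a median of -0.00435 over all genes tested. Within DMSO, AM580, CD3254 and the joint treatment, 27 to 30 of 40 members were higher in the library of the 5-library set than in both others (40.1% to 45.6% of all genes tested). Within 9-cis retinoic acid 18 of 40 were (38.6%). Members lower than both others numbered 9 or 10 within the former treatments (40.5% to 46.7% of all genes tested) and 11 within 9-cis retinoic acid (35.8%). Of the 11 tested enzymes, 5 were higher without overlap and 0 were lower. Of the 29 tested chains, 8 were higher and 3 lower.

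**Figure D2:**
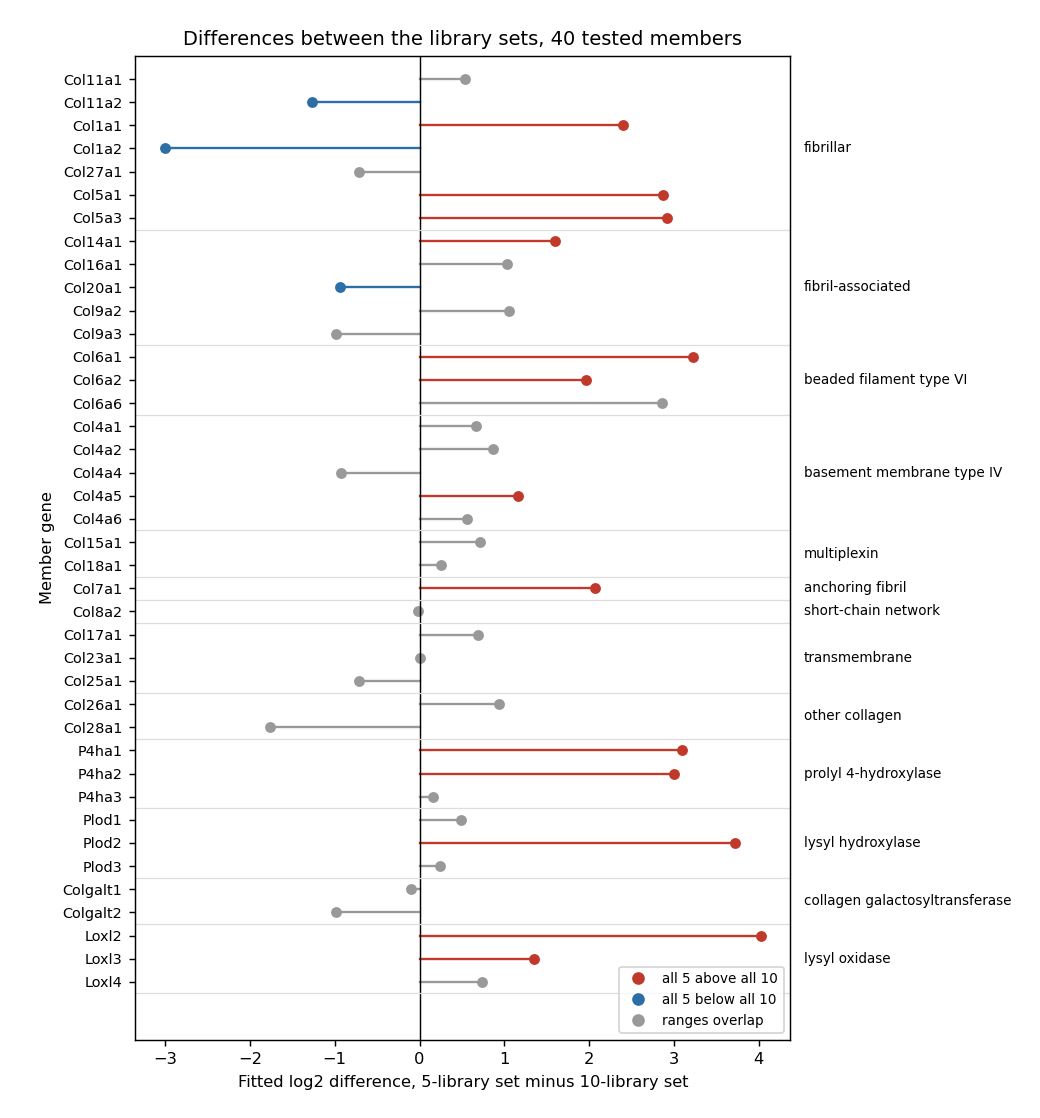
Fitted log2 difference of the 5-library set minus the 10-library set for the 40 tested members, grouped by role, with colour for ranges that do not overlap. Loxl2 (4.02) and Plod2 (3.72) lie furthest to the right and Col1a2 (-3.00) furthest to the left.

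Type I collagen, the main fibre of skin, bone and scar, is built from products of Col1a1 and Col1a2, and these genes differed in opposite directions. Col1a1 (ENSMUSG00000001506, chr11:94936224-94953042) was between 1.56 and 2.05 CPM in the 5-library set and between 0.200 and 0.599 CPM in the other, a fitted 5.28-fold higher. Col1a2 (ENSMUSG00000029661, chr6:4504814-4541544) was between 0.298 and 1.01 CPM in the 5-library set and between 3.34 and 6.26 CPM in the other, a fitted 8.01-fold lower. Neither pair of ranges overlapped, and Col1a2 was lower in each treatment, by 2.45 to 3.35 on the log2 scale. Per kb, Col1a1 averaged 0.274 ± 0.0277 (SD, n = 5) and Col1a2 0.0530 ± 0.0218 in the 5-library set, while the 10-library set had 0.0553 ± 0.0211 (SD, n = 10) and 0.414 ± 0.0794, so the order of the chains was exchanged. Both were low: the counts behind Col1a1 ran from 7 to 81 reads per library.

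The Col1a2 promoter window is shown because this member went against P4ha1 and P4ha2 while holding 2 of the same cores. Of all windows, 20.6% held at least 2 cores.
Col1a2 chr6:4505368-4505667: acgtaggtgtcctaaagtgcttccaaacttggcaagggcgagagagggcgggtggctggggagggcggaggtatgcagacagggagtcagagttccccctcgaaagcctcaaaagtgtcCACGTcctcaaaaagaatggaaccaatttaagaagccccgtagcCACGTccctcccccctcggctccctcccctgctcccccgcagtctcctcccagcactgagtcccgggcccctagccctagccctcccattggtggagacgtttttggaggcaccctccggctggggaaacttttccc

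Type V and type XI chains co-assemble with the major fibrils and limit their diameter. Col5a1 lay between 1.79 and 2.94 CPM in the 5-library set and between 0.174 and 0.508 CPM in the other, a fitted 7.34-fold higher. Col5a3 gave 20 to 27 reads per library against 0 to 7. Col11a1, the most abundant fibrillar chain, overlapped at 68.1 to 123 CPM against 47.8 to 80.01 CPM, a fitted log2 difference of 0.54. Its partner Col11a2 was lower in the 5-library set without overlap, at 2.74 to 4.16 CPM against 5.39 to 9.01 CPM, a fitted 2.41-fold. Of the type XI chains, then, Col11a2 separated the sets and Col11a1 did not.

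**Figure D3:**
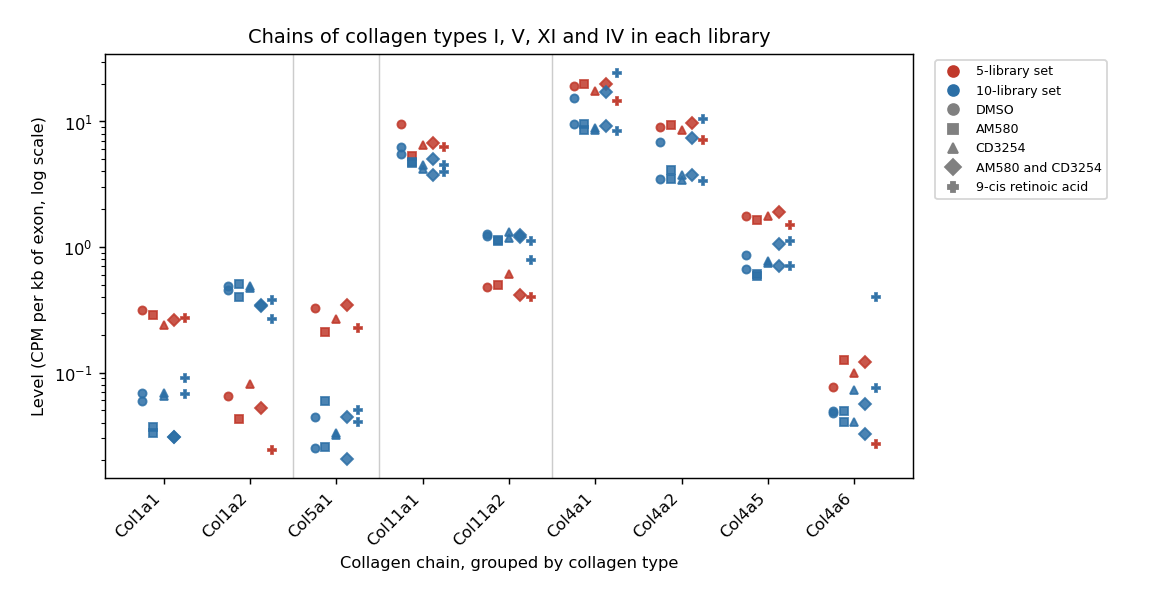
Level in CPM per kb of exon (log scale) of chains of types I, V, XI and IV, with 1 point per library, colour for the library set and symbol for the treatment. Col1a1 and Col5a1 are higher and Col1a2 and Col11a2 lower in the 5-library set, and in Col4a1 and Col4a2 replicate 3 of 9-cis retinoic acid, in the 10-library set, is the highest point.

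Type IV collagen forms the sheet of the basement membrane, and Col4a1 and Col4a2 encode its ubiquitous chains from head-to-head genes that share a promoter. Their exons overlap by 22 bases in the annotation. Col4a1 lay between 110 and 149 CPM in the 5-library set, median 143, and between 62.8 and 181 CPM, median 69.9, in the other. Col4a2 lay between 47.5 and 64.1 CPM, median 59.9, and between 22.1 and 69.8 CPM, median 24.7. In both genes replicate 3 of DMSO, of the joint treatment and of 9-cis retinoic acid were the highest of the 10. The other 7 lay below the 5-library set, between 62.8 and 71.7 CPM for Col4a1 and between 22.1 and 27.3 CPM for Col4a2. The window at the Col4a2 start, which also holds the Col4a1 start, is shown for the most abundant type IV pair and has 1 core. It runs back into Col4a1, so it is only part of the shared region. The Col4a1 window (chr8:11312777-11313076, minus strand, not printed) extends the other way. It has 1 core of its own, at -171 from the Col4a1 start, outside the printed window.
Col4a2 chr8:11312555-11312854: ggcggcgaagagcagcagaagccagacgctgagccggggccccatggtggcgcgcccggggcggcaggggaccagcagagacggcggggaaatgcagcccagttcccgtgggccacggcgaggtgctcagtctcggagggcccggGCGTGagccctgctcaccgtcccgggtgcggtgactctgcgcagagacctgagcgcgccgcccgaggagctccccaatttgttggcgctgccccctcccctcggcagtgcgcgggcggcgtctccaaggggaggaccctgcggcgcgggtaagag

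Of the minor type IV chains, Col4a5 was higher without overlap, at 10.1 to 12.8 CPM against 3.95 to 7.44 CPM, a fitted 2.23-fold. Col4a4 and Col4a6 were under 1 CPM on average, and Col4a6 reached its highest value, 3.16 CPM, in replicate 3 of 9-cis retinoic acid. Col4a3 was below the filter.

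Multiplexins are basement membrane proteoglycan collagens, and Col18a1 carries endostatin at its end. Col18a1 lay between 96.8 and 136 CPM in the 5-library set and between 78.4 and 167 CPM in the other. Col15a1 lay between 31.5 and 54.8 CPM and between 18.8 and 47.2 CPM. Replicate 3 of 9-cis retinoic acid was again the highest of the 10 for both, and the fitted log2 differences were 0.25 and 0.71.

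Col7a1, the chain of the anchoring fibrils under epithelia, was higher in the 5-library set at 2.26 to 4.32 CPM against 0.434 to 1.19 CPM, a fitted 4.19-fold. Type VI chains form beaded filaments around cells. Col6a1 gave 31 to 72 reads against 2 to 15 and Col6a2 lay between 1.03 and 1.64 CPM against 0.125 and 0.602 CPM, so both were higher without overlap at low levels. Type VI molecules usually hold Col6a1, Col6a2 and another chain, and of the other chains Col6a3, Col6a4 and Col6a5 were below the filter while Col6a6 overlapped.

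Fibril-associated collagens coat the fibrils, and they were split. Col14a1 lay between 6.64 and 14.97 CPM in the 5-library set and between 1.71 and 5.68 CPM in the other, a fitted 3.03-fold higher without overlap. Col20a1, at 4.87 to 10.4 CPM, was below its 11.3 to 18.03 CPM in the 10-library set, a fitted 1.92-fold. Col16a1 and Col9a2 had fitted log2 differences of 1.03 and 1.05 with overlap. The transmembrane chains Col17a1, Col23a1 and Col25a1 overlapped as well.

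Genes known to be induced at low oxygen also differed between the sets. Because the sets were read from these same counts, with earlier results known, the values below are descriptions and not independent support. Of 19 such genes tested, 17 were higher in the 5-library set without overlap (89.5% against 13.4% of all genes tested). The median log2 difference of the 19 was 2.96, and they summed to 10260 to 15580 CPM against 1665 to 2400 CPM. Of the 20 listed symbols, Ca9 is not the mouse form, Car9, and matched nothing, so that gene was not examined. The glucose transporter Slc2a1 averaged 293 ± 33.2 CPM (SD, n = 5) against 12.5 ± 4.52 CPM (SD, n = 10), and the mitophagy gene Bnip3 899 ± 52.1 against 57.1 ± 16.9 CPM. The glycolytic genes Aldoa and Ldha averaged 2778 and 2610 CPM against 354 and 664 CPM, and Adm and Ankrd37 had fitted log2 differences of 6.74 and 5.43. Car12 and Pfkfb4 overlapped. Their part in the member differences was not tested.

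The summed level of fibroblast and stellate markers, the cells known for making fibrillar collagen, overlapped between the sets. The list of 14 genes summed to 344 to 430 CPM in the 5-library set and 300.1 to 548 CPM in the other, led by Pdgfrb (155 to 342 CPM over all libraries) and Vim (47.9 to 212 CPM). Of its 11 tested genes, 2 were higher in the 5-library set without overlap, Thy1 (3.92 against 0.582 CPM) and Ngfr (0.625 against 0.157 CPM), and 3 were lower, Cspg4 (30.9 against 60.03 CPM), Tagln (1.57 against 2.93 CPM) and Gfap (0.346 against 0.705 CPM). The shares were 18.2% higher and 27.3% lower, against 13.4% and 12.6% of all genes tested. Lum, Fap and Tcf21 did not exceed 0.0855, 0.108 and 0.0290 CPM. The endothelial list of 7 genes summed to 7.31 to 9.32 CPM against 3.47 to 5.86 CPM, of which Tek held 6.38 against 1.85 CPM, whereas Kdr was at 0.670 against 2.10 CPM with overlap. The immune list of 7 summed to 9.87 to 24.9 CPM against 4.83 to 8.52 CPM, mostly Cd68 (14.3 against 5.49 CPM).

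Some markers of pancreatic epithelium also differed between the sets. Of 12 tested acinar genes, the transcription factors Rbpjl (104 against 288 CPM) and Ptf1a (26.1 against 62.9 CPM) and the lipase Cel (5.95 against 17.5 CPM) were lower in the 5-library set without overlap, and the transcription factor Bhlha15 was higher (65.4 against 31.9 CPM). Of 8 ductal genes, Spp1 was higher (37.2 against 4.96 CPM) and Sox9 lower (19.2 against 43.5 CPM). The acinar shares were 8.33% higher and 25% lower, and the ductal shares 12.5% each way. Over all genes tested, 13.4% were higher and 12.6% lower. The part of these markers in the member differences was not tested. In bulk RNA, fewer cells of a type and less RNA per cell cannot be told apart.

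Among 20 helpers of collagen folding and secretion, 7 were higher in the 5-library set without overlap (35% against 13.4% of all genes tested) and 1 was lower, and the median log2 difference was 0.38. P4hb, the protein disulfide isomerase that forms the other subunit of prolyl 4-hydroxylase, averaged 2651 ± 596 CPM (SD, n = 5) against 1218 ± 139 CPM (SD, n = 10), a log2 difference of 1.11 beside the 3.09 of P4ha1. The chaperone Hspa5 averaged 1966 against 1018 CPM. The lower gene was Fkbp10 (log2 -1.11), a prolyl isomerase of procollagen, and Serpinh1, the collagen chaperone HSP47, averaged 195 against 384 CPM with overlap.

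Outside the cell, 3 of 13 tested genes of procollagen processing and fibril assembly (23.1% against 13.4% of all genes tested) were higher without overlap: Sparc, a collagen-binding matricellular protein, at 109 against 50.7 CPM, and at low levels the procollagen N-proteinase Adamts2 (log2 2.52) and Postn (2.24). The most abundant of this list, the enhancer Pcolce and Fbln2, overlapped, at 222 against 380 CPM and 144 against 149 CPM. Among 13 collagen receptors tested, Itga11 (1.83) and Cd36 (0.68) were higher, a share of 15.4% near the 13.4% of all genes tested, while Itgb1 and Ddr2, the most abundant, overlapped at 402 against 378 CPM and 83.5 against 110 CPM.

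Among collagen-degrading genes, Mmp9 (log2 2.00) and Mmp11 (0.44) were higher and Mmp14 (-2.58) and Mmp15 (-0.54) lower in the 5-library set, out of 12 tested. These shares, 16.7% each way, were near those of all genes tested (13.4% and 12.6%). Mmp14, the membrane-anchored collagenase, averaged 1.90 ± 0.446 CPM (SD, n = 5) against 11.4 ± 1.57 CPM (SD, n = 10). The lysosomal proteases Ctsb and Ctsl, the most abundant of the list, overlapped.

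Of 18 other basement membrane genes tested, the laminin chains Lamb3 (28.5 against 3.50 CPM, log2 3.34), Lama5 (231 against 94.0 CPM, log2 1.31) and Lamc3 (log2 1.55) were higher without overlap, a share of 16.7% near the 13.4% of all genes tested. Lamb1 and the perlecan gene Hspg2, the most abundant, overlapped. In the TGF-beta pathway, which is known to drive collagen synthesis, 3 of 15 tested genes were higher without overlap and 2 were lower. These shares, 20% and 13.3%, stood against 13.4% and 12.6% of all genes tested. The target genes Ccn2 and Ccn1 were higher by 1.92 and 1.48 on the log2 scale. The ligand Tgfb2 (-2.32) and the signal transducer Smad2 (-0.77) were lower. Smad4 and Tgfbr1, the most abundant, overlapped.

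The ligands were compared with edgeR's quasi-likelihood test over all genes, with the library set as a term, and every call was also examined in the fit without that term. The 4 comparisons with DMSO share the DMSO libraries. In the fit with the term no member was called for AM580 (background 0.0299% of genes tested), CD3254 (0.0239%) or 9-cis retinoic acid (0.0299%), and 1 of 40 was called for the joint treatment (0.125%). Members at an unadjusted p under 0.05 numbered 5 with AM580 (12.5% against 4.21% of all genes tested), 4 with CD3254 (10% against 1.98%), 6 with 9-cis retinoic acid (15% against 3.97%) and 5 with both agonists (12.5% against 4.79%). Without the term no member was called in any of these comparisons, 1 member (joint treatment) had an unadjusted p under 0.05, and the backgrounds were 0.0179% for the joint treatment and 0% for the others. DESeq2 with the term called 0, 0, 0 and 1.

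The called member was Colgalt2 (ENSMUSG00000032649, chr1:152399830-152510695), which rose with the joint treatment. It measured 4.74, 7.61 and 5.43 CPM in DMSO replicates 1 to 3. With AM580 it measured 5.75, 11.4 and 12.9 CPM, and with CD3254 5.89, 12.5 and 10.4 CPM. With both it measured 17.0, 7.27 and 17.4 CPM, and with 9-cis retinoic acid 4.96, 10.2 and 13.3 CPM. The library of the 5-library set was the lowest of each treatment, and within each set the joint libraries were the highest and the DMSO libraries the lowest, although the CPM ranges of the joint treatment and DMSO overlapped.

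Group means of Colgalt2 were 5.93 ± 1.50 CPM (SD, n = 3) in DMSO and 13.9 ± 5.72 CPM with both agonists. The fitted change was 2.19-fold (log2 1.13, SE 0.20, 95% interval 0.683 to 1.58, edgeR FDR 0.045). It was not called without the set term (log2 1.23, SE 0.45, FDR 1), nor within the 10-library set alone (1.40, FDR 0.0597). It also lost its call with any 1 of 12 libraries left out (FDR up to 0.292), with log2 changes between 0.92 and 1.36 over all 15 omissions, and kept it without DMSO 1, AM580 1 or 9-cis retinoic acid 3.

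AM580 alone (log2 0.68, SE 0.20, edgeR FDR 0.808), CD3254 alone (0.64, SE 0.20, FDR 1) and 9-cis retinoic acid (0.57, SE 0.20, FDR 0.98) gave values on the same side of 0 that did not pass. The joint treatment lay above AM580 by 0.45 (95% interval 0.0106 to 0.888, edgeR FDR 0.608) and above CD3254 by 0.50 (0.057 to 0.935, FDR 1). The interaction, the change with both minus the sum of the single changes on the log2 scale, was -0.19 (SE 0.28, edgeR FDR 0.961). 9-cis retinoic acid lay below the joint treatment by 0.56 on the log2 scale (SE 0.20, edgeR FDR 0.888).

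**Figure D4:**
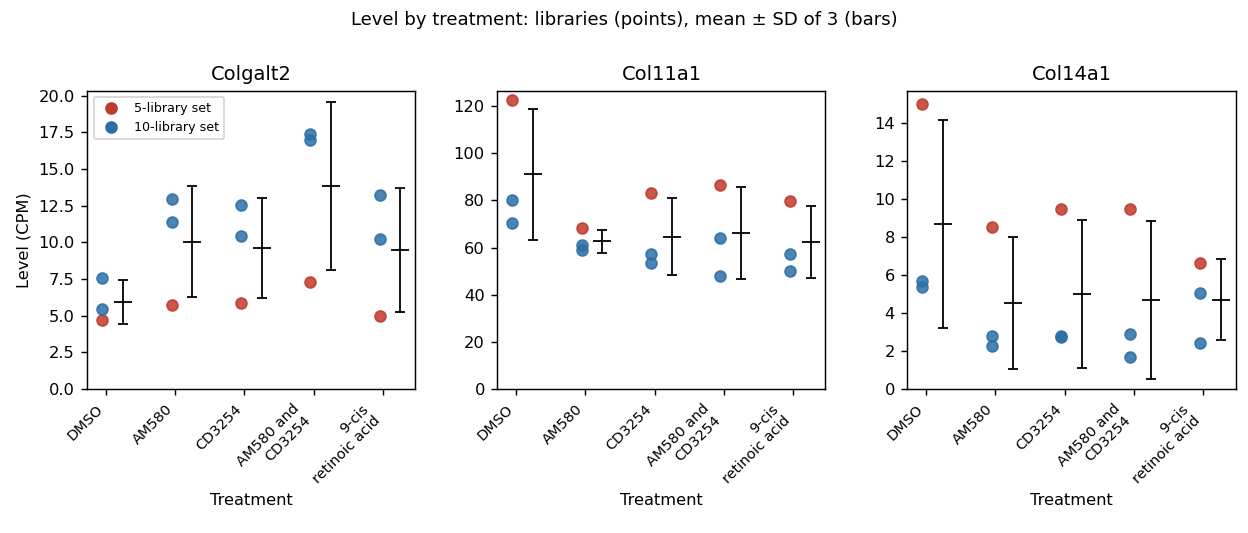
Level in CPM of Colgalt2, Col11a1 and Col14a1 by treatment, with 1 point per library coloured by library set and bars for mean ± SD of 3 libraries. Colgalt2 is highest with both agonists (13.9 ± 5.72 CPM) and lowest in DMSO (5.93 ± 1.50 CPM), and Col11a1 and Col14a1 have their highest mean in DMSO.

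Col11a1 and Col14a1 had the next smallest p-values and lay lower with every ligand, without passing the threshold. Col11a1 measured 123, 80.01 and 70.3 CPM in DMSO and 68.1, 61.0 and 59.0 CPM with AM580, so these groups did not overlap, as all AM580 libraries were below all DMSO libraries. Its log2 change was -0.49 with AM580 (SE 0.14, edgeR FDR 0.808), -0.48 with CD3254 (FDR 1), -0.45 with both (FDR 0.63) and -0.53 with 9-cis retinoic acid (FDR 0.98). All 4 values are set against the same DMSO libraries, of which replicate 1, at 123 CPM, was the highest of the 15.

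Col14a1 measured 14.97, 5.34 and 5.68 CPM in DMSO, and its libraries with AM580 gave 8.51, 2.80 and 2.28 CPM. The log2 changes were -1.01 with AM580 (SE 0.28, edgeR FDR 0.808), -0.88 with CD3254 (FDR 1), -1.03 with both (FDR 0.424) and -0.81 with 9-cis retinoic acid (FDR 0.98). DMSO replicate 1 was again the highest library, and within each set DMSO was the highest treatment. With AM580 replicate 1 and 9-cis retinoic acid replicate 3 both left out, Col14a1 passed as lower with the joint treatment (log2 -1.03, edgeR FDR 0.031).

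The remaining members lay on both sides of 0. With the set term, 14 of 40 tested members were above 0 with AM580, 13 with CD3254, 17 with both and 21 with 9-cis retinoic acid. The median log2 changes were -0.09, -0.15, -0.07 and 0.04, against medians over all genes tested between -0.00641 and 0.0121. P4ha1, which differed 8.52-fold between library sets, had group means of 262 ± 309 CPM (SD, n = 3) in DMSO and between 246 and 298 CPM in the ligand groups, so its spread within a treatment exceeded any difference between treatments.

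**Figure D5:**
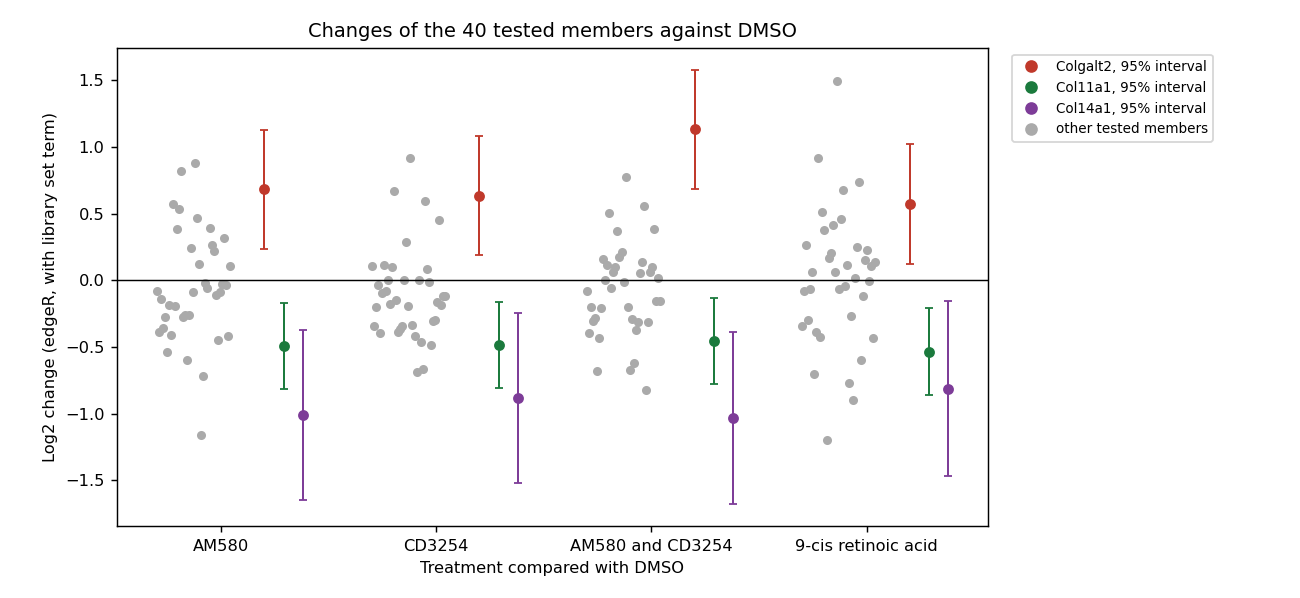
Fitted log2 change against DMSO (edgeR with the library set term) of the 40 tested members for each of the 4 treatments, with 95% intervals for Colgalt2, Col11a1 and Col14a1. The other members scatter on both sides of 0, and the interval of Colgalt2 with both agonists (0.683 to 1.58) is the one that belongs to a call.

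Comparisons among the ligands called no member. With the set term the background was 0.0120% for the joint treatment against AM580, 0.0299% against CD3254, 0% for the interaction and 0.00598% for 9-cis retinoic acid set against both agonists. Members at an unadjusted p under 0.05 numbered 2, 2, 2 and 1, or 5%, 5%, 5% and 2.5% against 5.62%, 2.04%, 1.98% and 3.39% of all genes tested. Without the term 0 members reached an unadjusted p under 0.05 in these 4 comparisons, and DESeq2 called 0 in each. Beside Colgalt2, the smallest p-values belonged to Loxl3 for the joint treatment against AM580 (log2 -0.71, SE 0.31, edgeR FDR 0.608; -0.40 without joint replicate 1) and to Col1a2 against CD3254 (-0.55, SE 0.25, FDR 1). For the interaction they belonged to Col11a1 (0.52, SE 0.20, edgeR FDR 0.961) and Col14a1 (0.86, SE 0.40, FDR 0.961), and in the comparison of 9-cis retinoic acid with both agonists Plod2 followed Colgalt2 (-0.45, SE 0.25, FDR 0.888). The Plod2 value was -0.22 without replicate 3 of 9-cis retinoic acid, -0.73 without its replicate 1 and -0.26 without joint replicate 3. For Loxl3, leaving out each library in turn gave -1.04 to -0.40.

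Among the lists of folding, processing, receptor, breakdown, basement membrane, hypoxia and TGF-beta genes, 1 gene was called in any of the 8 comparisons. Itga2, the alpha chain of a collagen-binding integrin, rose 19.0-fold with the joint treatment (log2 4.25, SE 0.56, edgeR FDR 0.00475, 0.081 without the set term). Among the tested members the largest fitted change against DMSO was that of Col4a6 with 9-cis retinoic acid (log2 1.50, SE 0.81, edgeR FDR 0.98), a gene whose replicate 3 held its highest value.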

How the data were processed

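Total RNA of 15 libraries, 5 groups of 3, was sequenced. Raw read counts for each Ensembl gene were deposited by the authors, made with FastQC, HISAT2 2.2.1, SAMtools 1.18 and HTSeq on mm10, per the submitters' processing notes. For the strand setting and the annotation release, nothing was given in the sources used here. Of 43432 gene identifiers, 42462 matched a symbol, and the counter's 5 categories without a gene were left out (18.06% to 62.99% of reads). No pair of libraries held identical counts (0 pairs). Nothing in the labels ties replicates to separate cultures. The p-values then measure only how far these samples spread, which may be technical.

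Counts were tested with edgeR 4.0.16 (with limma 3.58.1, in R 4.3.3). Genes passing filterByExpr (16736) were scaled by TMM factors and fitted to all 15 libraries by robust quasi-likelihood models of treatment plus library set. Tests were two-sided, with Benjamini-Hochberg adjustment over all genes tested (FDR) and a threshold of 0.05 in each of 8 contrasts. SEs come from the F statistic, and intervals are 95% intervals on the 9 residual degrees of freedom of the fit with the set term. The p-values use edgeR's moderated degrees of freedom, so an interval and its p-value need not match. The library set, read from the same counts, lowered the median biological coefficient of variation from 0.305 to 0.193, so the fit without it (10 residual degrees of freedom) stands beside each call. CPM used the TMM factors, and per-kb values used merged exons of GENCODE M21 on GRCm38, whose coordinates are given. Promoter windows came from the RefSeq table on GRCm38.p6. DESeq2 1.42.0, RLE factors, no filter, the replicate block, the 10-library set alone and leaving out libraries were the alternatives.

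The members, the lists of other genes and the library sets were chosen with earlier results of these data known. Members named with values were those called in any contrast, the 2 smallest p-values per contrast, the 12 highest by CPM per kb, those of at least 1 CPM whose sets did not overlap with a log2 difference of at least 1, and those nearest the filter. Of each other list the 2 most abundant and the 2 most different without overlap were named. Other members were named after their values were seen. One gene of the TGF-beta list is not reported here.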

Additional observations from a re-analysis of the deposited data

How the results depend on the processing

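The 1 member called with both agonists against DMSO (Colgalt2) became 0 without the library set term, with RLE factors (FDR 0.0511 by edgeR), in the replicate block without the set term, in the replicate block with it (FDR 0.145), and in the 10-library set alone. It became 2 with AM580 replicate 1 and replicate 3 of 9-cis retinoic acid both left out, where Col14a1 was added, and lay between 0 and 1 when each library was left out in turn. With DESeq2 (FDR 3.4e-05) and with no filter (edgeR FDR 0.00574) it stayed at 1. In the other 7 comparisons the count of members called was 0 under each alternative run.

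Of the single gene values by contrast, 463 kept their direction and side of the threshold, 17 fell below it and 1 passed it. For 2 the sign reversed: Col1a2 with both agonists against CD3254 was 0.46 on the log2 scale in the replicate block without the set term, and the interaction of Colgalt2 was 0.0429 without DMSO replicate 3, where leaving out each library gave -0.404 to 0.0429. The cause was not tested. The 342 gene values between library sets kept their direction. Members without overlap between the sets numbered 16, and between 16 and 21 under the alternatives.

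Correlations of deviations from the treatment means cannot decide whether equal replicate numbers pair the libraries, because these correlations followed the library sets. Pairs in different sets did not exceed -0.172, and pairs within a set were at least -0.0789. Of 30 same-number pairs, 20 were over 0.1, in a range from -0.681 to 0.815. For 7 of 15 libraries the best correlation was with their own number. The replicate block made the call of Colgalt2 0 members, as given above. Depth limits the 17 members below the filter, and any low member in replicate 3 of 9-cis retinoic acid. Ranges and intervals do not cover differences between cultures.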

Other observations

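Within the 10-library set, a further pattern was seen after the values were known and is given without a test. Replicate 3 of DMSO, of the joint treatment and of 9-cis retinoic acid were its 3 highest libraries for 9 of the 40 tested members (22.5%), against 6.44% of all genes tested. These members were the basement membrane chains Col4a1, Col4a2, Col4a4, Col4a5 and Col15a1, the hydroxylase subunits P4ha1 and P4ha2, and the oxidases Loxl2 and Loxl4. P4ha1 measured 96.0, 94.0 and 124 CPM in the 3 libraries and between 61.0 and 76.1 CPM in the other 7. Loxl2 measured 4.78, 6.84 and 11.0 CPM there. The same 3 libraries were the highest of the 10 for 6 of the 19 tested genes known to be induced at low oxygen (31.6%). Plod2 was not among them: it measured 11.6 and 12.5 CPM in replicate 3 of DMSO and of the joint treatment and 4.70 CPM, its lowest value of all 15 libraries, in replicate 3 of 9-cis retinoic acid, the library with the fewest gene reads.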
